A study of Mus musculus with 9 samples.

Results

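The library prepared from MIN6 cells with the NEXTflex V2 protocol (NF-HiSeq) was compared with the 3 libraries prepared from MIN6 cells with the Illumina v1.5 protocol (v1.5-GAIIx). These 4 of the 9 small RNA-seq libraries of the series were chosen by their labels, NEXTFlex MIN6 rep6 and V1.5 MIN6 rep1 to rep3. MIN6 is a mouse insulinoma line that resembles pancreatic beta cells, and the cells carried no treatment. The v1.5 libraries are biological replicates, whereas NEXTflex V2 has 1 MIN6 library, so no spread between NEXTflex libraries could be measured. The v1.5 RNA was extracted with TRIzol and sequenced on a GAIIx. The NEXTflex RNA was extracted with a Norgen column kit and sequenced on a HiSeq at another facility and a later date. Protocol, RNA, platform, facility and date therefore changed together and cannot be told apart in this comparison. Of 358 miRNA 5′ starts that were named and placed, 321 were compared, those with 100 RPMM or more in any of the 4 libraries, where RPMM is reads per 1000000 mapped reads. Of these, 243 are reference starts, belonging to 218 mature names, and 78 are 5′-shifted starts (5′-isomiRs), written with their shift in nucleotides, as in miR-375-3p (+1).

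A mature miRNA is cut from a hairpin precursor by Drosha and Dicer, and its bases 2 to 8, the seed, pair with target mRNAs. Moving the 5′ end by a single nucleotide changes the seed. In small RNA-seq an adapter is ligated to each end of the RNA, and the ligases prefer some ends over others. The v1.5 protocol uses adapters of fixed sequence, whereas NEXTflex V2 uses a pool of adapters that carry random bases at the ligation boundary. A read count therefore depends both on how much of a miRNA is present and on how readily it was ligated. Such counts do not separate these.

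The mature sequences of miRNAs with large differences are given below, as RefSeq holds them for the GRCm38.p6 assembly, with the seed in capitals. Of the 218 names, 190 were matched to RefSeq. Among the names higher with NEXTflex V2 are the pair of miR-7 miRNAs, miR-483-5p, miR-470-5p and miR-802-5p.
miR-7a-5p: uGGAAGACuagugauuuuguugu
miR-7b-5p: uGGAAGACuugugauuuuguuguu
miR-483-5p: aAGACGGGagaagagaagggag
miR-470-5p: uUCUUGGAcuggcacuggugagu
miR-802-5p: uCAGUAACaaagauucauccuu
The mature sequence of miR-7a-5p lies at chr7:78888295-78888317 on the plus strand in Mir7-2, 1 of its 2 copies. That of miR-7b-5p lies at chr17:56243017-56243040 on the plus strand (Mir7b). These 2 miRNAs share a seed and differ at A10U, where positions are counted from 1 at the 5′ end and the first base belongs to miR-7a-5p.

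The 10 reference starts with the largest fold change toward v1.5 come next, followed by miR-141-3p of the miR-200 family described below, and their seeds differ among themselves.
miR-362-5p: aAUCCUUGgaaccuaggugugaau
miR-500-3p: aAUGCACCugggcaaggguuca
miR-409-5p: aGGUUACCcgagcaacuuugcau
miR-325-3p: uUUAUUGAgcaccuccuaucaa
miR-33-5p: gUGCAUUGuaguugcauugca
miR-136-5p: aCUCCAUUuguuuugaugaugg
miR-338-3p: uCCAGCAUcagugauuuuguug
miR-494-3p: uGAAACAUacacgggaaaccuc
miR-96-5p: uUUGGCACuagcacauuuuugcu
miR-183-5p: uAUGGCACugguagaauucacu
miR-141-3p: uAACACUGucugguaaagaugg

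Close relatives that were set against each other within a library are shown next. They share a seed and differ at a few bases of the body or the 3′ end.
let-7a-5p: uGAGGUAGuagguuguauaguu
let-7b-5p: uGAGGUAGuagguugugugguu
let-7f-5p: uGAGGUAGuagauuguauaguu
let-7i-5p: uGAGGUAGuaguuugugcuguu
miR-103-3p: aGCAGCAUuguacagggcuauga
miR-107-3p: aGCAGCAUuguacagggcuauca
miR-29a-3p: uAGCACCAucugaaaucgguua
miR-29b-3p: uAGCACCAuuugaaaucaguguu
miR-27a-3p: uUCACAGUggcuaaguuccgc
miR-27b-3p: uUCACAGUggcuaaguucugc

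The summed counts came to 25.6M for NEXTflex V2 and 10.8M to 13.2M (M, 1000000) for the v1.5 libraries. The NEXTflex library was the deeper, but its reads lay on fewer distinct alignments. It had 14532 distinct alignments without a mismatch and with whole counts, against 167311 to 196854 in the v1.5 libraries. The median such alignment held 35 reads with NEXTflex V2 and 1 read in each v1.5 library. In NEXTflex V2 20.3% of these alignments were single reads, whereas the v1.5 libraries had 73.0% to 79.2%. The lowest level set by 3 reads was 0.117 RPMM for NEXTflex V2 and 0.238 to 0.289 RPMM for v1.5. These floors cover counting error only, because PCR copies were not removed. The plot of reads per distinct alignment shows the gap. Its part in the low NEXTflex values described below was not tested.

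**Figure D1:**
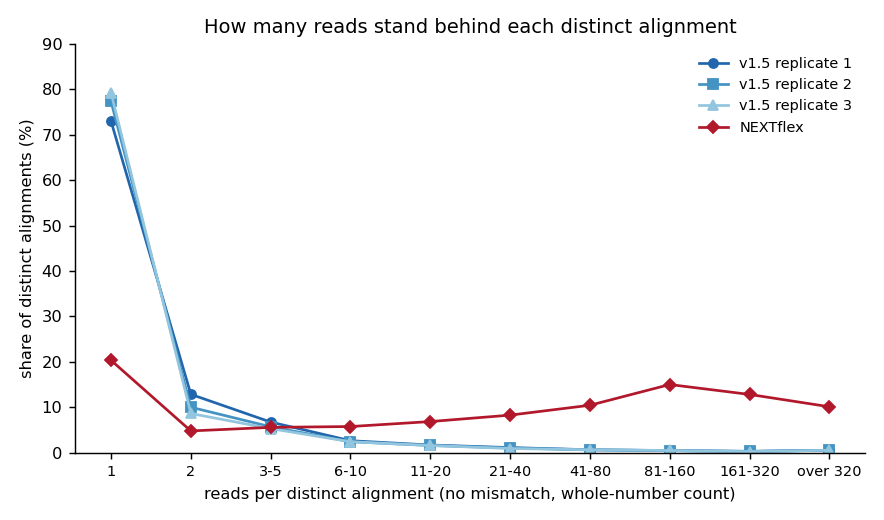
Share of distinct exact alignments (y axis, %) by the number of reads on each (x axis), for the NEXTflex V2 library and the 3 v1.5 libraries. Single reads made up 20.3% of alignments with NEXTflex V2 and at least 73.0% with v1.5, and alignments of 81 to 160 reads 15% against at most 0.482%.

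The labelled cell type was checked with known beta-cell miRNAs. miR-375-3p, the islet miRNA that restrains insulin secretion, was at 64950 RPMM with NEXTflex V2 and at 72816, 80288 and 87327 RPMM with v1.5, so it was abundant with both protocols. The other beta-cell markers, miR-7a-5p, miR-7b-5p, miR-184-3p and miR-182-5p, were also detected in all 4 libraries. Of the 3 blood markers placed, miR-142-5p had no read and miR-451 was at 0.0391 RPMM with NEXTflex V2, against 0.193 to 1.17 and 0.793 to 1.34 RPMM with v1.5. The third, miR-486-5p, was at 21.5 RPMM against 1.40 to 2.46 RPMM. The smooth muscle miRNAs miR-145-5p and miR-143-3p were at 0 and 0.508 RPMM with NEXTflex V2, against 0 to 0.289 and 2.51 to 3.09 RPMM. The 3 entries of miR-199, another stromal marker, were at 2.88 RPMM against 2.49 to 3.23 RPMM. The endothelial miR-126-3p was at 70.0 RPMM against 201, 191 and 208 RPMM.

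Across the 321 starts, 33 (10.3% of all tested) were more than 10-fold higher with NEXTflex V2 and 34 (10.6%) more than 10-fold higher with v1.5, with 1 RPMM added to each mean. More than 5-fold differences were found for 58 (18.1%) and 77 (24%). Of the starts over 10-fold, reference starts made up 19 and 24, and shifted starts 14 and 10. Copies of a miRNA count separately here. With copies merged, 28 of 288 starts were over 10-fold higher with NEXTflex V2 and 31 with v1.5. NEXTflex V2 lay above all 3 v1.5 libraries for 117 starts (36.4%), below all 3 for 195 (60.7%) and between them for 9. The v1.5 replicates had a median coefficient of variation of 4.46% and differed by at most 1.71-fold between the highest and lowest replicate. The median difference between protocols was 3.76-fold in either direction. With edgeR's quasi-likelihood test and Benjamini-Hochberg adjustment, 110 starts (34.3%) were higher with NEXTflex V2 and 187 (58.3%) with v1.5. That test takes its spread from the 3 v1.5 libraries alone and assumes that the NEXTflex library varies like them, so it compares these libraries and not the protocols. The smallest fold change it called was 1.12. Of the 321 starts, 171 reached 100 RPMM with both protocols, 62 with NEXTflex V2 alone and 88 with v1.5 alone. A start that reached the limit with a single protocol was higher there, in at least 1 library, by construction, so the counts and medians of groups below describe the starts that passed and support no direction.

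The scale moves the split. The median log2 fold change, NEXTflex V2 minus v1.5, was −0.75, and reads of miR-7 took up 30.5% of the mapped reads with NEXTflex V2. The starts over 10-fold numbered 47 higher with NEXTflex V2 and 24 higher with v1.5 under TMM or DESeq2 size factors, and 58 and 20 relative to miR-30e-5p. Under TMM or DESeq2 size factors 149 starts were called higher and 158 lower, and with miR-7 removed from the library size 143 and 163. Medians of groups are therefore to be read beside that of all starts, and relatives are compared by ratios within a library. Of the 21 groups described below, 6 have a median that changes sign under another scale, and these are named there. Of the 33 starts over 10-fold higher with NEXTflex V2, 28 had v1.5 means under 100 RPMM, and of the 34 over 10-fold higher with v1.5, 28 had NEXTflex values under 100 RPMM. Just inside the 10-fold limit were miR-467e-5p (+1) at 10.3-fold and miR-141-3p (−1) at 10.9-fold. Just outside were miR-465c-5p at 9.81-fold and miR-129-2-3p at 9.94-fold.

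**Figure D2:**
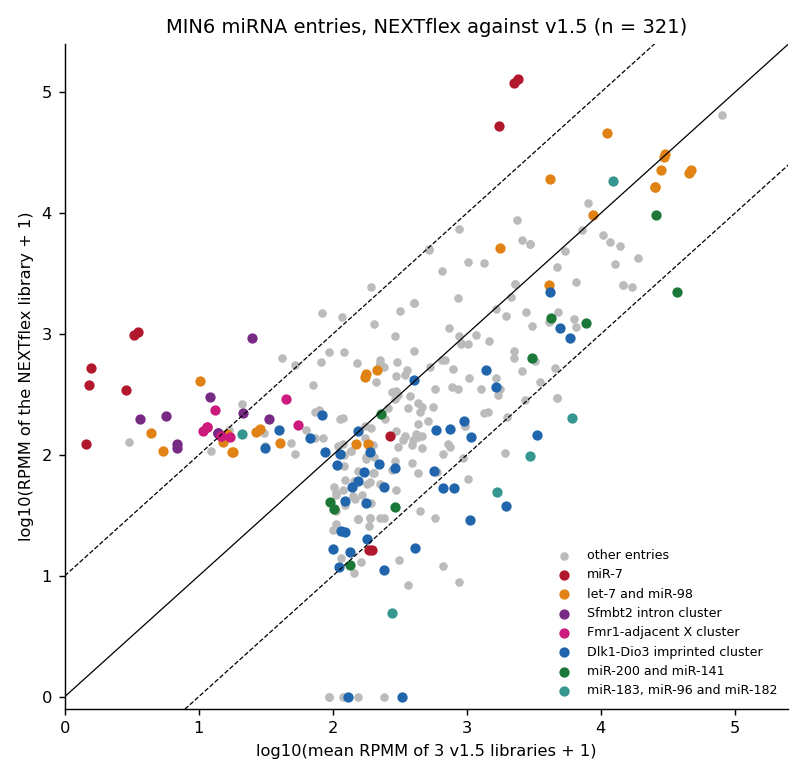
Level of each of 321 miRNA starts with NEXTflex V2 (y axis) against the v1.5 mean (x axis), both as log10 of RPMM plus 1, with lines for equal levels and 10-fold differences. 33 starts lie above and 34 below the 10-fold lines, and 9 of the 12 miR-7 starts lie above the upper 10-fold line.

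The squared Pearson correlation of RPMM over these starts averaged 0.166 between NEXTflex V2 and v1.5 (range 0.164 to 0.167), against 0.996 among the v1.5 libraries. With whole counts only, which leave out reads divided among positions, it averaged 0.424 between the protocols. On log10 values it was 0.276 against 0.998. These correlations are across miRNAs, which are not independent replicates, and are given as descriptions. Without the entries of miR-7 and miR-375 it rose to 0.509 against 0.998 within v1.5. The profile was more concentrated with NEXTflex V2, where 32 names made up 90% of the reads at reference starts, against 53 to 54 names with v1.5. The 10 highest names held 61.0% of the mapped reads, against 42.9% to 45.5%. Both sets of 10 highest names held let-7a-5p, let-7c-5p, let-7f-5p, let-7g-5p and miR-375-3p, which are 5 of 10 in each.

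The miR-7 family, which restrains insulin secretion in beta cells, had the highest median log2 fold change of 21 families, clusters and groups, 6.09, against −0.75 for all starts. miR-7a-5p, summed over its copies, was at 248933 RPMM with NEXTflex V2 and at 4852, 4703 and 4436 RPMM with v1.5. It was the highest miRNA of the NEXTflex library (24.9% of mapped reads) and ranked 31 to 35 in the v1.5 libraries. NEXTflex V2 was 53.4-fold above the v1.5 mean (edgeR log2 fold change for the miR-7a-1-5p copy 5.75 ± 0.067 SE, adjusted p = 2.13e-10). Counts divided among positions made up 89.8% at that copy with NEXTflex V2 and 89.7%, 3.97% and 2.10% with v1.5, and with whole counts only the log2 difference was 3.04 and the call was lost (edgeR adjusted p = 0.124). miR-7b-5p was at 52492 RPMM against 1749, 1741 and 1683 RPMM, 30.4-fold higher, with rank 4 against 59 to 60. The TruSeq libraries of MIN6 gave still lower levels than v1.5, 904 ± 117 RPMM for miR-7a-5p and 361 ± 21.4 RPMM for miR-7b-5p (SD, n = 3). The other arm was lower. miR-7a-2-3p was at 143 RPMM with NEXTflex V2 and at 261, 264 and 271 RPMM with v1.5, 1.85-fold lower (edgeR adjusted p = 6.92e-06). Relative to miR-30e-5p the difference of that arm turned, to 0.13 on the log2 scale.

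Of the 12 miR-7 starts, 9 were more than 10-fold higher with NEXTflex V2 and 2 more than 10-fold lower, against 10.3% and 10.6% of all starts. Of the 12, 6 reached 100 RPMM with NEXTflex V2 alone and 2 with v1.5 alone. The 2 lower starts are the copies of miR-7a-5p (+4). For the miR-7a-1 copy, reads at +4 amounted to 0.0119% of those at the reference start with NEXTflex V2 and to 8.10 ± 1.34% (SD, n = 3) with v1.5. Starts shifted by 1 nt went the other way. Reads at −1 amounted to 0.399% of the reference reads with NEXTflex V2 and to 0.0234 ± 0.00533% with v1.5, and reads at +1 to 0.802% and 0.104 ± 0.000803%. The 24-nt read was the commonest at the reference starts of miR-7a-5p and miR-7b-5p in all 4 libraries. It made up 63.2% of the miR-7a-1-5p reads with NEXTflex V2 and 63.1% to 63.6% with v1.5.

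The let-7 family, regulators of differentiation and of growth signalling, held 24.6% of mapped reads with NEXTflex V2 and 26.2 ± 0.453% (SD, n = 3) with v1.5. Its members differed in direction. let-7b-5p was at 45901 RPMM against 11423, 10972 and 10792 RPMM, 4.15-fold higher. let-7i-5p was at 19165 RPMM against 4050, 4170 and 4302 RPMM, 4.59-fold higher. let-7f-5p, the highest miRNA of v1.5, was at 44142 RPMM against 90717, 90371 and 96215 RPMM, 2.09-fold lower. Its copy let-7f-2-5p turned to 0.084 on the log2 scale with whole counts only (edgeR adjusted p = 0.972). let-7c-5p was at 60154 RPMM, which lies between the v1.5 values of 60407, 58678 and 60146 RPMM, though its copy let-7c-2-5p was called higher under TMM factors (0.74). Of the 27 let-7 and miR-98 starts, 17 were called higher and 8 lower with edgeR, against 34.3% and 58.3% of all starts, and their median log2 fold change was 1.40, against −0.75. Of these starts, 10 reached 100 RPMM with NEXTflex V2 alone.

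miR-375-3p was 1.23-fold lower with NEXTflex V2 (edgeR log2 fold change −0.30 ± 0.101 SE, adjusted p = 0.0203), but its direction turned under TMM factors (0.38) and other scales. miR-182-5p, an abundant sensory and endocrine miRNA, was at 18540 RPMM against 11676, 12239 and 13278 RPMM, so it lay above every v1.5 library. Its cluster partners went the other way. miR-183-5p was at 201 RPMM against 5935, 5906 and 6365 RPMM, and miR-96-5p was at 97.2 RPMM against 2966, 2945 and 2960 RPMM. Each was 30.1-fold lower with NEXTflex V2. The NEXTflex values rest on 6 and 3 distinct exact read lengths, against 17 and 10.3 on average in the v1.5 libraries. These 3 miRNAs are encoded by neighbouring genes of a single cluster.

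The miR-467 and miR-669 miRNAs are encoded as repeats in an intron of Sfmbt2, a maternally silenced gene active in placenta. All 11 of their starts reached 100 RPMM with NEXTflex V2 alone, at v1.5 means of 2.67 to 32.5 RPMM, so that all were higher follows from the limit. Their median log2 fold change was 4.06. miR-669c-5p was at 920 RPMM against 22.3, 24.2 and 25.1 RPMM, 37.0-fold higher. miR-669o-5p and miR-669l-5p were 36.6-fold and 24.6-fold higher. The 9 starts of the X-linked cluster next to Fmr1, known from testis, likewise reached the limit with NEXTflex V2 alone, at v1.5 means of 9.81 to 53.9 RPMM, and had a median log2 fold change of 3.29. Here miR-470-5p was at 235 RPMM against 11.3, 13.0 and 12.4 RPMM, 17.8-fold higher. Members of these clusters are close in sequence, so reads shared between them may be divided among copies.

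miR-483-5p, miR-802-5p and miR-122-5p were also among the 10 reference starts with the largest fold change toward NEXTflex V2. miR-483-5p, from an intron of Igf2, was at 1506 RPMM against 81.0, 82.0 and 84.5 RPMM, 18.05-fold higher (edgeR log2 fold change 4.19 ± 0.0635 SE, adjusted p = 7.17e-10). Its other arm, miR-483-3p, was at 1396 RPMM against 114, 112 and 122 RPMM. miR-802-5p, known from liver and pancreas, was at 628 RPMM against 45.4, 39.8 and 38.0 RPMM, 14.9-fold higher. miR-122-5p, the dominant miRNA of hepatocytes, was at 128 RPMM against 2.38, 1.93 and 1.73 RPMM, 42.7-fold higher. The NEXTflex liver library held it at 532452 RPMM, so the MIN6 value is 0.0240% of the liver value. Among the 4 entries with at least 1000 RPMM in that liver library and under 10 RPMM in v1.5, miR-143-3p stood at 0.0291% and miR-486-5p and miR-3107-5p at 1.30% and 1.31% of liver. The last pair had the same value with NEXTflex V2 in MIN6, 21.5 RPMM, so they may hold the same divided reads. The part of the liver library in these values was not tested.

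**Figure D3:**
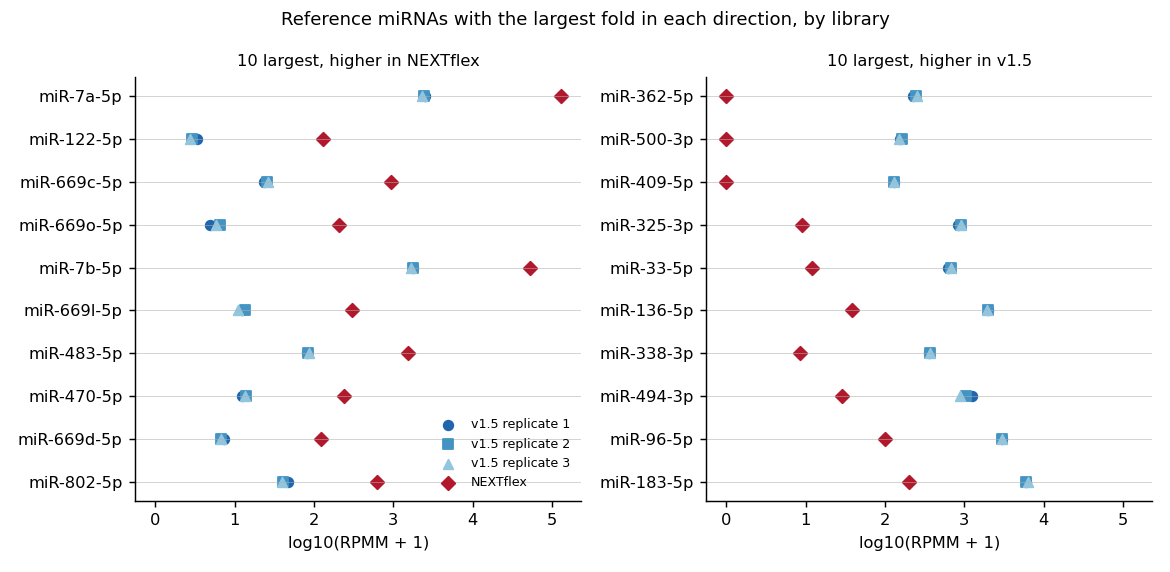
Level in each library (x axis, log10 of RPMM plus 1) of the 10 reference starts with the largest fold change in each direction, with NEXTflex V2 and the 3 v1.5 libraries as separate points. The v1.5 points nearly coincide, while the NEXTflex point lies 14.9-fold or more above their mean in the first group and 30.1-fold or more below it in the second.

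The names lower with NEXTflex V2 included 3 with no read at all. miR-362-5p was at 222, 241 and 254 RPMM with v1.5, miR-500-3p at 155, 161 and 147 RPMM and miR-409-5p at 130, 129 and 127 RPMM. Set against the floor of 3 reads in the NEXTflex library, they were at least 2037-fold, 1313-fold and 1096-fold lower, bounds that cover counting error only. miR-362-5p and miR-500-3p are encoded close together in an intron of Clcn5 on the X chromosome, and miR-409-5p lies in the Dlk1-Dio3 cluster. Of the 358 placed starts, 12 had no read with NEXTflex V2 and none lacked reads with v1.5. Other zeros were miR-376a-5p (+1), at 344, 327 and 311 RPMM with v1.5, and miR-339-3p, at 63.3, 56.9 and 54.4 RPMM.

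miR-325-3p was at 7.86 RPMM against 830, 895 and 911 RPMM, 99.3-fold lower (edgeR log2 fold change −6.80 ± 0.126 SE, adjusted p = 1.74e-09). miR-33-5p, a regulator of cholesterol export, was at 11.03 RPMM against 628, 679 and 685 RPMM, 55.3-fold lower. miR-136-5p was at 37.0 RPMM against 1991, 1968 and 1927 RPMM, 51.6-fold lower. miR-338-3p and miR-494-3p were 42.9-fold and 36.7-fold lower. All v1.5 libraries lay well above NEXTflex V2 for each of these, and the NEXTflex values rest on 1 to 2 distinct exact read lengths, against 7 to 13.3 on average with v1.5. Over the reference starts tested, those under 50 RPMM with NEXTflex V2 had a median of 2 distinct lengths against 8 with v1.5, and those above 500 RPMM had 6 against 10.3.

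The 6 mature miRNAs of the epithelial miR-200 family, which represses Zeb1 and Zeb2, were lower with NEXTflex V2. miR-141-3p was at 2247 RPMM against 34846, 36957 and 39360 RPMM, 16.5-fold lower (edgeR log2 fold change −4.04 ± 0.104 SE, adjusted p = 6.13e-09). miR-200c-3p was at 9660 RPMM against 25724, 25471 and 26098 RPMM, 2.67-fold lower. None of the 10 starts of the family was called higher and 9 were called lower, against 34.3% and 58.3% of all starts, and the median log2 fold change was −1.97, against −0.75. Of these starts, 4 reached 100 RPMM with v1.5 alone. The miR-23, miR-27 and miR-24 starts, encoded together in a pair of clusters, were lower in 9 of 9 (4 reached the limit with v1.5 alone) with a median of −2.55, though relative to miR-30e-5p members near the median of all starts turned, such as miR-24-2-5p (0.14). miR-27b-3p was at 2439 RPMM against 16222, 17140 and 18021 RPMM, and miR-24-3p at 5131 RPMM against 31109, 28233 and 27761 RPMM. The miR-24-1-3p copy kept a log2 fold change of −2.46 with whole counts only, but not its call (edgeR adjusted p = 0.117). The miR-29 starts, which repress collagens, had a median of −2.91 with 1 of 8 higher (miR-29a-3p also turned under TMM factors, to 0.034, and with the sum of all counts as library size the median was −1.56 over the 6 starts that still reached the limit), the miR-148 and miR-152 starts a median of −2.34 with 4 of 4 lower, and the miR-101 starts a median of −2.53 with 4 of 4 lower.

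The imprinted Dlk1-Dio3 cluster, which encodes many miRNAs of neurons and islets from the maternal allele, contributed 43 starts, of which 24 reached 100 RPMM with v1.5 alone and 5 with NEXTflex V2 alone. Of the 43, 4 were called higher with NEXTflex V2 (9.30%, against 34.3% of all starts) and 35 lower (81.4%, against 58.3%). More than 10-fold lower were 9 (20.9%, against 10.6%), and the median log2 fold change was −2.16, against −0.75 for all starts. miR-381-3p was at 146 RPMM against 3238, 3307 and 3474 RPMM, 22.7-fold lower, and miR-127-3p at 935 RPMM against 5501, 5747 and 6421 RPMM, 6.29-fold lower. Some members differed little. miR-382-5p was at 417 RPMM against 396, 405 and 406 RPMM, and miR-433-3p at 158 RPMM against 147, 158 and 157 RPMM. miR-329-5p lay above every v1.5 library, at 159 RPMM against 40.3, 41.2 and 34.1 RPMM.

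Among neuronal and endocrine miRNAs, 12 of 34 starts were called higher (35.3%) and 18 lower (52.9%), beside the 34.3% and 58.3% of all starts, with a median log2 fold change of −0.59. This group holds the 12 miR-7 starts, without which 3 of 22 were called higher (13.6%) and 15 lower (68.2%), with a median of −1.17. miR-184-3p, abundant in beta cells, was at 206 RPMM against 1959, 1940 and 2080 RPMM, and miR-137-3p at 102 RPMM against 1872, 1927 and 1952 RPMM, 18.7-fold lower. miR-9-5p was at 1688 RPMM against 669, 681 and 677 RPMM. miR-129-5p differed little, at 1664 RPMM against 1757, 1788 and 1889 RPMM. The miR-181 starts were called higher in 4 of 4, with a median log2 fold change of 2.18, and the miR-26 starts in 3 of 3, with 0.92. With whole counts only, miR-181a-1-5p turned to −0.27 (edgeR adjusted p = 0.759), and miR-26a-2-5p was at 1.46 with its call lost (edgeR adjusted p = 0.493). Within the miR-15 and miR-16 group, miR-16-5p was at 10018 RPMM against 1024, 1039 and 1076 RPMM, while miR-15a-5p was at 364 RPMM against 733, 779 and 817 RPMM. The miR-17~92 and miR-106b~25 clusters, which promote proliferation, held both directions. Their miR-93-5p was at 7243 RPMM against 6971, 7201 and 7500 RPMM, and miR-106b-5p at 5310 RPMM against 13456, 14228 and 14050 RPMM.

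**Figure D4:**
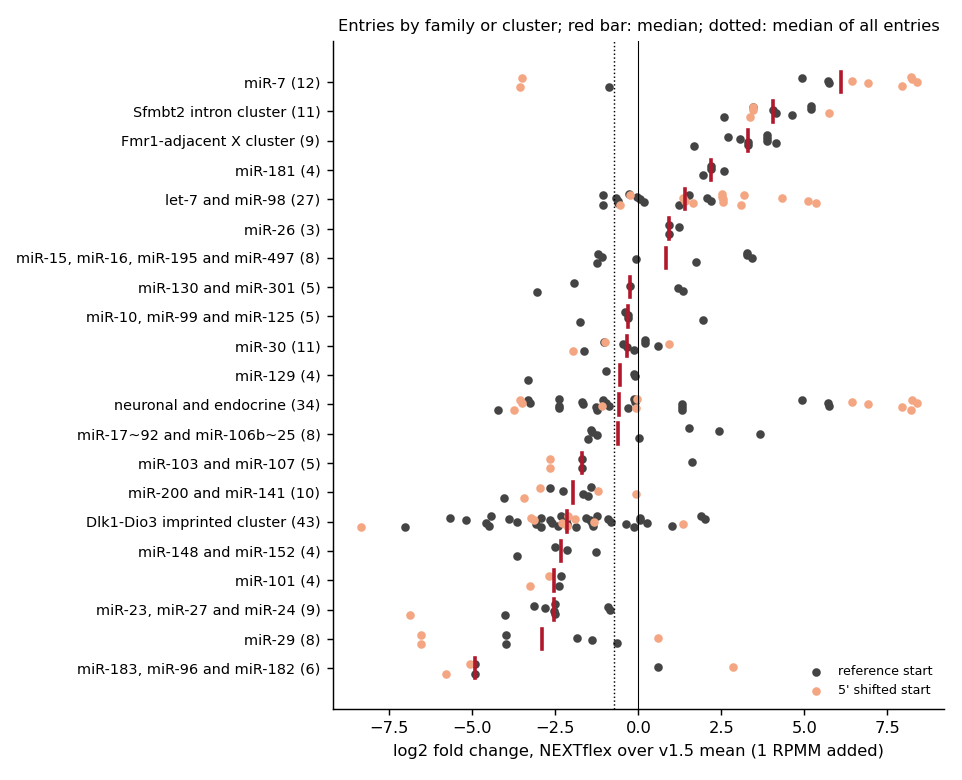
Log2 fold change, NEXTflex V2 minus v1.5, of each start (points) in 21 families, clusters and groups, with the median of each as a bar. The medians run from −4.91 for miR-183, miR-96 and miR-182 to 6.09 for miR-7, beside −0.75 for all 321 starts.

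The other families are given by their medians and calls, beside a median of −0.75 and calls of 34.3% higher and 58.3% lower for all starts. The median was −0.33 for the 11 starts of miR-30, of which 4 were called higher and 6 lower, and −0.26 for the 5 of miR-130 and miR-301, with 2 and 3. For the 5 starts of the miR-10, miR-99 and miR-125 family the median was −0.33, with 1 higher and 4 lower, and for the 4 of miR-129 it was −0.55, with none higher and 2 lower. The 8 starts of miR-17~92 and miR-106b~25 had a median of −0.62 with 3 higher and 4 lower, and the 8 of miR-15, miR-16, miR-195 and miR-497 had 0.82 with 4 and 3. The miR-103 and miR-107 starts had −1.71, with 1 higher and 4 lower, but miR-103-2-3p was called higher with whole counts only (log2 fold change 2.28, edgeR adjusted p = 0.0159). Under TMM factors the medians of miR-30 (0.35), miR-130 and miR-301 (0.43), miR-10, miR-99 and miR-125 (0.35), miR-129 (0.13), miR-17~92 and miR-106b~25 (0.06) and the neuronal and endocrine group (0.09) were above 0, so no direction is given for these 6.

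Ratios of relatives within a library do not depend on the library size, but they do depend on how reads that fit several positions are divided. miR-103-3p and miR-107-3p differ at G22C. miR-103-3p was 11.4 times miR-107-3p with NEXTflex V2 and 114 ± 0.988 times (SD, n = 3) with v1.5, a 10.0-fold difference in the ratio. From whole counts only, the ratio was 9.55 with NEXTflex V2 and 9.54, 6.09 and 6.09 with v1.5, so that difference was not seen there. miR-29a-3p was 11.1 times miR-29b-3p with NEXTflex V2 and 1.10 ± 0.0610 times with v1.5, so it exceeded miR-29b-3p clearly in the former and by little in the latter. These 2 differ at C10U, G18A, U21G and A22U. let-7a-5p was 0.720 times let-7b-5p with NEXTflex V2 and 4.57 ± 0.181 times with v1.5, which turns the order of the pair, and they differ at A17G and A19G. let-7a-5p was 1.72 and 12.1 ± 0.364 times let-7i-5p. By contrast, let-7a-5p was 12.9 and 12.2 ± 0.131 times let-7e-5p, which differs at U9G, and miR-181a-5p was 2.04 and 2.28 ± 0.0963 times miR-181b-5p. miR-27a-3p was 0.0255 times miR-27b-3p with NEXTflex V2 and 0.0597 ± 0.00154 times with v1.5 (C19U). With whole counts only, which left 1653 of the 33057 RPMM of let-7a-5p with NEXTflex V2, its ratio to let-7b-5p was 0.0366 against 0.286, 0.110 and 3.98, so the order of that pair depends on the divided reads. Its ratio to let-7e-5p then was 0.650 against 0.783, 0.294 and 10.3, a v1.5 spread set by replicate 3, with NEXTflex V2 inside it. In the same way miR-181a-5p was 0.259 times miR-181b-5p against 2.45, 1.40 and 2.65 times, and miR-29a-3p 210 times miR-29b-3p against 22.9, 1.17 and 1.17 times, whereas miR-27a-3p was 0.0253 times miR-27b-3p against 0.0550, 0.0585 and 0.0583 times. A read that ends before the differing base cannot tell miR-103-3p from miR-107-3p.

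Many miRNAs with a common seed differed from each other. There were 23 seeds held by at least 2 names (64 names), and in 13 of them all members lay on the same side of 0. The median range of log2 fold changes within a seed was 1.38, and 10 seeds had a range above 2. The 9 names with the let-7 seed ranged from −1.05 to 2.20.

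The arms of a hairpin are cut from the same precursor, and 51 hairpins had both arms listed. Compared at their reference starts, 9 of them did not have the same more abundant arm with both protocols. The 5p arm of miR-325 made up 98.5% of the sum of both arms with NEXTflex V2 and 21.3 ± 0.528% (SD, n = 3) with v1.5, since miR-325-5p was at 532 RPMM against 231, 234 and 249 RPMM while miR-325-3p was at 7.86 RPMM. For miR-15b the 5p share was 87.1% against 45.9 ± 0.129%, and for miR-329 it was 91.0% against 27.9 ± 1.48%. In the other direction, the 5p share of miR-136 was 40.8% against 93.4 ± 0.0768%, that of miR-582 was 42.3% against 73.1 ± 1.86% and that of miR-666 was 2.59% against 79.6 ± 3.75%. miR-409, miR-151 and miR-483 were the other hairpins whose order changed at the reference starts. When each arm was summed over the starts within 5 nt, 8 of the 9 still changed order. The exception was miR-483, whose 3p arm was the more abundant with both protocols, since its commonest start lies 1 nt downstream, and its 5p share was 29.4% against 23.2 ± 0.443%. By these sums 2 further hairpins changed order, miR-434 (51.3% against 49.5 ± 0.659%) and miR-455 (47.9% against 59.9 ± 3.27%). At the reference starts the median difference was 5.30 percentage points, with 21 hairpins over 10 and 10 hairpins over 30 points.

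**Figure D5:**
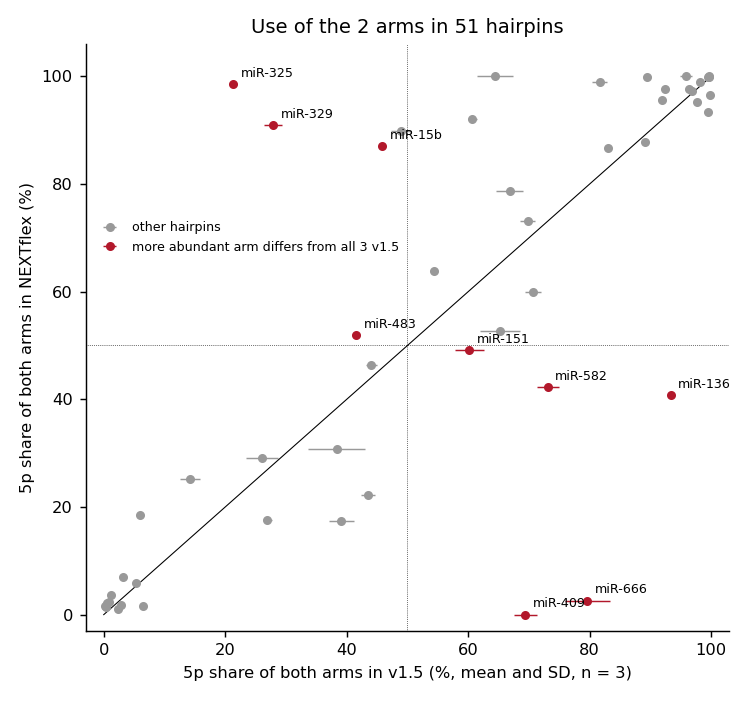
Share of the 5p arm in the sum of both arms at their reference starts (%) with NEXTflex V2 (y axis) against the v1.5 mean (x axis) for 51 hairpins. The 9 hairpins whose more abundant arm differs at these starts (8 of them also over all starts within 5 nt) lie in the quadrants away from the diagonal, with miR-325 at 98.5% against 21.3% and miR-666 at 2.59% against 79.6%.

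Most arms kept their 5′ start. The median share of an arm's reads at the reference start was 98.5% with NEXTflex V2 and 98.7% with v1.5, over 243 arms. In 9 arms the commonest start differed from that of all 3 v1.5 libraries. For miR-101a-3p it was the reference start with NEXTflex V2 (55.3% of reads) and the start 1 nt upstream with v1.5, where the reference start held 39.7%, 39.8% and 38.6%. For miR-324-3p the start at +2 was the commonest with NEXTflex V2, and the reference start held 19.7% against 75.9%, 75.4% and 77.0%. The others were miR-127-5p, miR-186-3p, miR-383-5p, miR-384-3p, miR-467e-5p and both arms of miR-582. Of 69 shifted starts set against their own reference start, 41 had a higher share with NEXTflex V2 than in all v1.5 libraries, 27 a lower and 1 neither. Downstream shifts were above in 27 and below in 16, and upstream shifts above in 14 and below in 11. For let-7b-5p (+1) the share was 0.894% against 0.0829 ± 0.00931%, and for miR-375-3p (+1) it was 3.14% against 2.69 ± 0.0247%. All shifted starts together held 2.14% of listed reads against 2.57 ± 0.0541%, but 3.23% against 3.22 ± 0.352% with whole counts only.

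Reads that began 1 nt upstream of a reference start amounted to 0.816% of the reference reads with NEXTflex V2 and 1.26% to 1.36% with v1.5. Of these, 23.8% had a mismatch at their first base with NEXTflex V2, against 2.21% to 2.76% with v1.5. The TruSeq libraries of MIN6 had 4.01% to 4.21%, whereas the liver libraries had 38.7% with NEXTflex and 44.2% with TruSeq, so a high share was not particular to NEXTflex.

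Reads at reference starts matched the genome without a mismatch in 91.1% with NEXTflex V2 and in 86.7%, 90.2% and 90.2% with v1.5. A single mismatched T anywhere in the last 3 bases, a class that would include an added 3′ uridine, was on 3.11% against 4.54% to 4.75%. A single mismatched A there was on 2.12% against 2.36% to 2.47%. The median read length at listed starts was 23 nt with NEXTflex V2 and 22 nt with v1.5. The 24-nt class held 27.9% of these reads with NEXTflex V2 and 5.04% to 5.22% with v1.5, and without miR-7 it held 6.97% against 4.58% to 4.70%, which brought the NEXTflex median to 22 nt. Across 240 starts the mean length was longer with NEXTflex V2 than in all v1.5 libraries for 138 and shorter for 87, and the commonest length was equal in all 4 libraries for 186. For miR-183-5p the commonest length was 23 nt with NEXTflex V2 and 22 nt with v1.5. Of the mapped reads, 85.5% lay on listed starts with NEXTflex V2 and 78.4 ± 2.02% (SD, n = 3) with v1.5. This order turned with whole counts only, to 51.0% against 61.0 ± 4.24%.

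Base composition was set beside the differences as a description. Over the 190 names with a RefSeq sequence, GC content and log2 fold change had a Pearson r of 0.069 and a Spearman rho of 0.095. The median log2 fold change was −1.36 for miRNAs that begin with A, −0.40 with C, −2.19 with G and −1.07 with U. It was −0.37 above 50% GC, −1.27 from 40% to 50% GC and −1.31 below 40% GC, beside −1.12 for all 190 names. Over the 218 names the fold change had a rho of −0.381 with the v1.5 level and of 0.470 with the NEXTflex level, values that enter the fold change themselves.

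Levels relative to miR-30e-5p, an abundant miRNA that served as the reference for RT-qPCR, do not depend on library size. miR-375-3p was 11.3 times miR-30e-5p with NEXTflex V2 and 6.87 ± 0.317 times (SD, n = 3) with v1.5. Summed over its copies, miR-24-3p was 0.897 times against 2.50 ± 0.271 times, and miR-27b-3p 0.426 times against 1.47 ± 0.0142 times. miR-29a-3p was 1.15 times against 0.888 ± 0.0574 times and miR-129-5p, summed likewise, 0.291 times against 0.155 ± 0.00313 times. All 5 lay outside the range of the v1.5 libraries, and miR-375-3p, miR-29a-3p and miR-129-5p lay above it here but below it in RPMM. miR-30e-5p itself was at 5723 RPMM with NEXTflex V2 and at 11090, 11744 and 12132 RPMM with v1.5.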

How the data were processed

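Small RNA was measured in 9 libraries, of which 4 were compared here. The authors trimmed reads with cutadapt and aligned them with Bowtie to mm9, per the labels and methods, with versions not given in the sources used here. They deposited expected counts per alignment, where a read that fits several places equally well is shared out among them. Counts were summed by 5′ end, divided by the study's mapped reads (25.6M for NEXTflex V2, 10.4M to 12.6M for v1.5) to give RPMM, and rounded to whole numbers for edgeR. The sums exceed the mapped reads by 0.285% (NEXTflex V2) and 3.98% to 4.39% (v1.5), and no explanation was found. Names came from joining the values of the study's miRNA table to 5′ ends within a relative tolerance of 3e-05, so levels equal that table partly by construction. Of the 358 starts, 13 had several equal positions. Of 190 names set against their RefSeq sequence over the bases that the edit strings report, 189 had conflicts in under 1% of mismatching reads. miR-101b-3p had them in 33.1%, so its sequence is not printed.

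Fold changes use means after 1 RPMM was added, and starts needed 100 RPMM in at least 1 of the 4 libraries. edgeR 4.0.16 (R 4.3.3, quasi-likelihood test, mapped reads as library sizes, threshold 0.05) was fitted to all 321 starts. On data simulated for this comparison with 321 starts it called 91 of 91 starts changed 2-fold, 109 of 109 changed 4-fold and 4 of 121 unchanged. The simulated NEXTflex values were drawn with the spread of the v1.5 libraries. These counts therefore cannot test whether the real NEXTflex library varies like them. Alternatives covered DESeq2 1.42.0, the library size, the expression limit, mismatches, divided reads, copies and leaving out each v1.5 replicate. Removing miR-7 from the library size, taking ratios from whole counts only and summing starts to compare the order of arms were chosen after seeing the data. Members, families and tests were chosen with earlier results of these data known. By rule, the text names from the 10 reference starts with the largest fold change in each direction, the 10 highest with either protocol, miRNAs the study discusses, the 3 largest shifted starts in each direction, arms whose commonest start or order differs, starts at 0 and the extremes of each family. Other names were chosen after their values were seen. Sequences are from RefSeq (GRCm38.p6), which was not used for coordinates of the counts. Statistics used Python 3.11.15, SciPy 1.17.1 and pandas 2.3.3.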

Additional observations from a re-analysis of the deposited data

Results flagged for a closer look

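Outside the listed miRNA starts, 429 other 5′ ends reached at least 100 RPMM in at least 1 of the 4 libraries, in 370 groups of ends within 5 nt. The comparison of named miRNAs does not use these ends. Of the 429, 24 (20 groups) were more than 10-fold higher with NEXTflex V2. Their highest NEXTflex value was 2731 RPMM, and their v1.5 means lay between 0 and 171 RPMM. In the other direction, 217 ends (195 groups) were more than 10-fold higher with v1.5, and 61 ends had no NEXTflex read. Among the 321 named starts, 33 and 34 differed by that much in these directions. An end that reached the limit with a single protocol was higher there, in at least 1 library, by construction. These counts therefore support no direction. The sum over the 429 ends was 49183 RPMM with NEXTflex V2 and 98127 ± 5000 RPMM (SD, n = 3) with v1.5. What these ends are was not analysed here.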

How the results depend on the processing

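With 1 NEXTflex library, a difference between protocols has no replicate check on that side. No paired analysis was possible because the NEXTflex library carries replicate number 6 and shares no number with the v1.5 libraries. The NEXTflex library holds few distinct alignments for its depth, and its low values rest on few read forms. A link between these was not tested, and counting intervals cover counting error only. Scaled to miR-30e-5p, starts over 10-fold numbered 58 higher with NEXTflex V2 and 20 higher with v1.5, and those over 5-fold 85 and 34. With a limit of 500 RPMM, over which 148 starts were tested, the counts over 10-fold were 12 and 16, over 5-fold 20 and 42, and edgeR calls 49 and 88. When starts were summed per arm, 19 arms were over 10-fold and 32 over 5-fold higher with NEXTflex V2, against 23 and 57 higher with v1.5. Starts over 5-fold numbered 71 higher with NEXTflex V2 and 45 higher with v1.5 under TMM factors, and 71 and 45 under DESeq2 size factors. Without miR-7 in the library size they numbered 69 and 50. These compare with 58 and 77 as reported, so the larger side of the 5-fold counts depends on the scale.

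The median log2 fold change was −0.67 with the sum of counts as library size, −1.0 with the listed reads, −0.062 with TMM factors, −0.069 with DESeq2 size factors, −0.23 without miR-7 and 0.28 relative to miR-30e-5p. It was −0.87 with a limit of 50 RPMM, −0.81 with no limit, −0.92 for alignments without a mismatch, −0.98 for whole counts only, −0.90 with copies merged and −0.90 per arm. The squared correlation was 0.168 at 50 RPMM, 0.129 at 500 RPMM, 0.169 with no limit, 0.152 without mismatches, 0.424 with whole counts only and 0.138 with copies merged. With whole counts only, which leaves out reads divided among positions, the NEXTflex share on listed starts differed by −9.98 percentage points instead of 7.15, the shifted share differed by 0.0141 points instead of −0.435, the share without a mismatch by 0.327 instead of 4.20, and the median length by 0 instead of 1 nt. Leaving out each v1.5 replicate in turn gave 33 to 35 and 34 to 35 starts over 10-fold, 57 to 58 and 71 to 77 over 5-fold, 107 to 112 and 182 to 189 edgeR calls, medians of −0.79 to −0.77, squared correlations of 0.165 to 0.167, and differences of 6.38 to 8.29, −0.464 to −0.411 and 3.02 to 4.99 points, with the length difference at 1 nt. DESeq2's test called 110 and 188, and a fit of all 7 MIN6 libraries 110 and 186. The cause of these shifts was not tested beyond what each setting leaves out.

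Of 82 named starts, 13 lay on the other side of 0 under at least 1 of 18 alternatives, 10 of them called by edgeR and 3 not (let-7c-2-5p, miR-129-1-5p and miR-151-3p). None of the 13 differed by more than 5-fold as reported. Under DESeq2 size factors, TMM factors and relative to miR-30e-5p, the log2 fold changes became 0.072, 0.079 and 0.42 for let-7a-1-5p, 0.043, 0.050 and 0.39 for miR-151-5p, 0.027, 0.034 and 0.37 for miR-29a-3p, 0.38, 0.39 and 0.73 for let-7g-5p (0.22 without miR-7) and 0.38, 0.38 and 0.72 for miR-375-3p (0.21 without miR-7). Relative to miR-30e-5p they became 0.14 for miR-24-2-5p and 0.13 for miR-7a-2-3p. With whole counts only they became 0.084 for let-7f-2-5p, 2.28 for miR-103-2-3p (edgeR adjusted p = 0.0159) and −0.27 for miR-181a-1-5p. The calls of let-7a-1-5p, miR-24-1-3p, miR-26a-2-5p, miR-29b-2-3p, miR-375-3p and miR-7a-1-5p were lost with whole counts only, with adjusted p from 0.0976 to 0.493, though their log2 fold changes kept their sign, at −3.15, −2.46, 1.46, −7.49, −0.30 and 3.04. Ratios of relatives from whole counts only were added after seeing the data. On the log2 scale the difference between protocols turned from −3.33 to 0.40 for miR-103-3p to miR-107-3p and from 0.079 to −2.55 for let-7a-5p to let-7e-5p. The latter rests on v1.5 replicate 3, without which it was 0.27, and NEXTflex V2 lay within the range of the v1.5 libraries.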
